A study of Mus musculus with 89 samples.

Results

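S1pr1, Lpar1, Naaa, Pla2g7 and Pnpla8 are a pair of lysophospholipid receptor genes and 3 genes of lipid-cleaving enzymes, described here across single stem and progenitor cells of the mouse dentate gyrus. They are 5 of the 24411 genes in the deposited tables. They were chosen by name, as genes of lipid mediators, with results on these same cells already known, so their class, colour and age differences are descriptions and support nothing on their own. The working name ties them to quiescent stem cells. In these cells it held for S1pr1, Naaa and Pla2g7, which had a read in all 60 qNSC cells, and not for Lpar1 and Pnpla8, which had one in 15 and 26 of them. S1pr1, Naaa and Pla2g7 were not confined to that class, with a read in 15, 9 and 16 of 18 aNSC cells.

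Sphingosine 1-phosphate and lysophosphatidic acid are small lipids that act from outside the cell on G protein-coupled receptors, and S1pr1 and Lpar1 encode the founding receptor of each family. Other lipid mediators are controlled by the enzymes that release or destroy them: the Naaa product cleaves N-acylethanolamines in lysosomes, the Pla2g7 product is a secreted hydrolase that inactivates platelet-activating factor, and the Pnpla8 product is a calcium-independent phospholipase of mitochondria and peroxisomes. In the adult mouse dentate gyrus a reporter driven by Lpar1 is known to mark neural precursor cells.

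The cells came from homozygous Nestin:CFPnuc mice on a C57BL/6 background, in which the Nestin promoter drives a nuclear cyan fluorescent protein. All groups share this transgene. Live cells were sorted singly from dissociated dentate gyri of mice aged 4.5 or 2 months and amplified with a full-length template-switching kit (SMART-Seq v4). The 89 cells are sorted by a deposited groups table into the classes qNSC (taken as quiescent neural stem cells), aNSC (activated ones) and IPC (intermediate progenitors), each with a colour code. There were 60 qNSC cells (28 of 4.5 months and 32 of 2 months), 18 aNSC cells (7 and 11) and 11 IPC cells (6 and 5). The qNSC cells carry 3 colour codes, here called red (26 cells), green (25) and blue (9). The sources used here give neither the meaning of the colours nor the basis of the classes. Whether the classes were drawn from these same expression values cannot be told, and the class differences are read with that limit.

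The animals are not named, so each group counts as 1 sample and no test was run. The SDs below are over cells, intervals are exact 95% intervals that cover counting error only, and without molecular identifiers a read is not an independent molecule. Totals ran from 234607 to 1896074 counts per cell with a median of 912391. Y-linked genes had 10 or more reads in 0 of 41 cells of 4.5 months and 38 of 48 cells of 2 months, while Xist or Tsix had them in 37 and 0 cells, so age and sex cannot be told apart. At least 50% of the markers of another cell type reached 10 reads in 13 cells, 9 aNSC and 4 qNSC. This flag did not count the stem cell, astrocyte, intermediate progenitor and neuroblast lists. Astrocyte markers alone met the 50% limit in most quiescent cells (54), and also in 7 activated cells and 1 progenitor. Neuroblast markers met it in 3 activated cells and 2 progenitors. Cells described below as having markers of other types are the 13 flagged ones only. Among the 13, 7 aNSC cells carried Pdgfra, the growth factor receptor of oligodendrocyte precursors, and all 10 genes of that precursor list reached 10 reads in the median cell of the 7.

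Promoters are shown for 3 of the enzyme genes, because Naaa and Pla2g7 were high in qNSC cells and low in IPC cells while Pnpla8 went the other way. Each is the RefSeq window of 300 bases on GRCm38.p6, 250 bases before to 50 after an annotated start, read 5′ to 3′ on the gene's strand with CpG dinucleotides in capitals. The windows are chr5:92278132-92278431 (minus strand) for Naaa, chr17:43568201-43568500 (plus strand) for Pla2g7 and chr12:44268904-44269203 (plus strand) for Pnpla8. The Pla2g7 and Pnpla8 windows each belong to a start inside the gene. The annotation used for exon overlaps places Pla2g7 at chr17:43568098-43612201 and Pnpla8 at chr12:44221370-44322532.
Naaa: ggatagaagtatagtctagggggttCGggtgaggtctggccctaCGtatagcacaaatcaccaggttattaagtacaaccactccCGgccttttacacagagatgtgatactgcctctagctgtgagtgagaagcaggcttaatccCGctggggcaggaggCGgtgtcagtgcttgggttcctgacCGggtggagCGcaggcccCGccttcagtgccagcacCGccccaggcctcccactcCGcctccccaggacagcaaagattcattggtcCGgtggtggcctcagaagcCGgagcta
Pla2g7: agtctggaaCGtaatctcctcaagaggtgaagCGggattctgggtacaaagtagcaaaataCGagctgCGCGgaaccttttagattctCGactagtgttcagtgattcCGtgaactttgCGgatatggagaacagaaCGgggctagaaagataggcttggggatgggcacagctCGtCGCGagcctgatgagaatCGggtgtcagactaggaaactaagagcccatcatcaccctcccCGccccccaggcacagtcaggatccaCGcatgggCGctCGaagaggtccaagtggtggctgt
Pnpla8: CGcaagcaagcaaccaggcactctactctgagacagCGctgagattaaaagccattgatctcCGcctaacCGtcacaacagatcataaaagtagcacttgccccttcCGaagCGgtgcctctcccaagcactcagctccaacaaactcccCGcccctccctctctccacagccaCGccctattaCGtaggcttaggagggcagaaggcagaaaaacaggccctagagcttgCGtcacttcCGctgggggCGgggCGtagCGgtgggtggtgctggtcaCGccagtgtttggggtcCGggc
The windows hold 12, 17 and 16 CpGs in that order, against a median of 7 over 32851 RefSeq promoters of the same length. As many CpGs or more stand in 39.6%, 31.4% and 33% of all promoters, a description of these windows that says nothing of the expression differences. Lpar1 has 3 annotated starts on chromosome 4, and their windows hold 14, 37 and 3 CpGs. These values per gene do not show which start was used.

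Per length, the enzyme Pla2g7 was by far the most abundant of the 5 transcripts in qNSC cells. Its TPM (the deposited transcript abundance, scaled by length) ran from 1324 to 10170 with a median of 4293 over the 60 cells, the 20th highest median of the 2474 genes with a median above 0. S1pr1 ran from 29.3 to 3465 TPM with a median of 1116, in place 87. For Naaa the TPM ran from 0.960 to 1600 with a median of 481, in place 243. The medians thus fell in the order Pla2g7, S1pr1 and Naaa, and the ranges of all 3 overlapped. Lpar1 and Pnpla8 had a median of 0 TPM and reached 596 and 228 TPM in their highest cells. Only 99 genes had a read in every qNSC cell, and S1pr1, Naaa and Pla2g7 were among them.

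**Figure D1:**
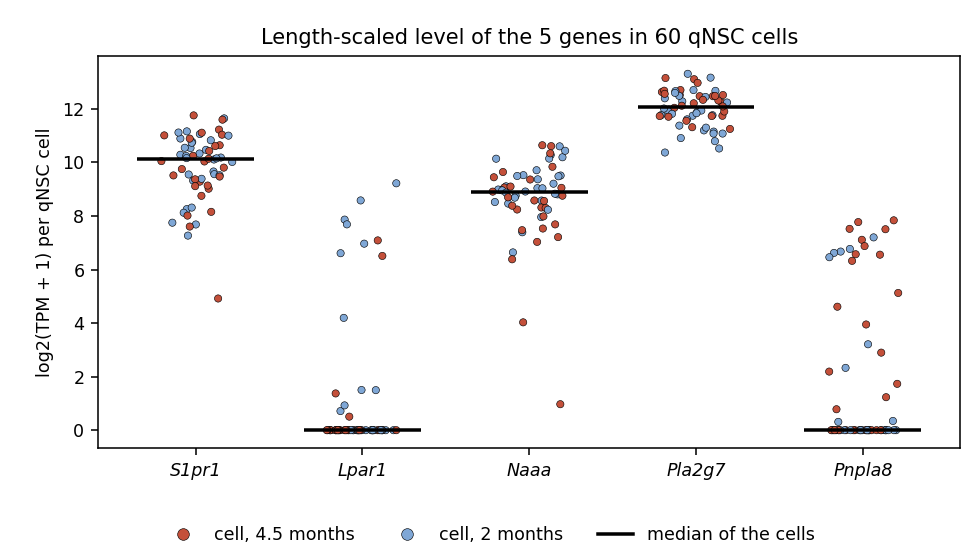
Length-scaled level, log2(TPM + 1), of the 5 genes in each of the 60 qNSC cells; points are cells coloured by age and bars are medians. Pla2g7 was tightest and highest (1324 to 10170 TPM), while Lpar1 and Pnpla8 were at 0 in 45 and 34 cells.

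Pla2g7 also varied least from cell to cell. Its highest qNSC cell had 7.68 times the TPM of its lowest, against 118 times for S1pr1. The S1pr1 ratio rested on 1 blue cell of 4.5 months with 17 reads and the lowest total of all cells, and without it was 22.6 times, while Pla2g7 without its own lowest cell stood at 6.92 times. The SD of log2(CPM + 1), where CPM is the count scaled to 1000000 counts per cell, was 0.65 for Pla2g7, 1.22 for S1pr1 and 1.54 for Naaa. The spread of Naaa rested on few cells: 58 of 60 had 10 or more reads, and the other 2 were blue cells of 4.5 months. Within qNSC cells the level of these 3 genes followed sequencing depth weakly, with Spearman coefficients against total counts of 0.13 for S1pr1, -0.07 for Naaa and -0.02 for Pla2g7 over 60 cells. The coefficient was larger for Lpar1, at 0.31, and -0.12 for Pnpla8.

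The receptor S1pr1 was lower in aNSC and IPC cells than in qNSC cells. CPM in qNSC cells had a lowest value of 72.5, a median of 2081 and a highest value of 6575. In aNSC cells the values were 0, 7.12 and 4881 CPM, and in IPC cells 0, 1.76 and 292 CPM. Some aNSC and IPC cells lay within the qNSC range, while 10 of 18 aNSC and 8 of 11 IPC cells lay below the lowest qNSC cell. How many of all measured genes do the same was not computed. The aNSC cells formed a high and a low set: 8 had 100 or more reads, 7 had 1 to 9 and 3 had none. Mean log2(CPM + 1) was 5.05 ± 4.53 in aNSC and 10.77 ± 1.22 in qNSC cells, a difference of -5.72, and the difference of IPC from qNSC cells was -8.06.

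Naaa, the lysosomal amidase, followed the same order of classes. In qNSC cells its CPM had a lowest value of 1.18, a median of 750 and a highest value of 2341. The aNSC values were 0, 0.69 and 1463 CPM, and 9 of the 18 aNSC cells had no read. IPC cells reached at most 123 CPM, and 9 of 11 had no read. Mean log2(CPM + 1) was 3.43 ± 4.21 in aNSC cells and 9.28 ± 1.54 in qNSC cells (difference -5.85). In IPC cells it was 0.77 ± 2.10 (difference from qNSC -8.52).

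Pla2g7, the hydrolase of platelet-activating factor, was also lower in aNSC and IPC cells than in qNSC cells. Its CPM had a lowest value of 1676, a median of 5131 and a highest value of 10517 in qNSC cells. In aNSC cells the values were 0, 335 and 5455 CPM, and in IPC cells 0, 0 and 668 CPM. All 11 IPC cells and 12 of 18 aNSC cells lay below the lowest qNSC cell. The share of all measured genes with such a gap was not computed, so these counts only describe Pla2g7. Summed over cells, Pla2g7 had 826 CPM (812 to 841) in aNSC, 60.2 CPM (55.6 to 65.2) in IPC and 5413 CPM (5394 to 5433) in qNSC cells. Pla2g7 shares exon sequence with 1700071M16Rik, an antisense gene on the other strand that the tables also list, and this kit does not record strand, so their reads cannot be told apart with certainty.

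Pnpla8, the calcium-independent phospholipase, was the member that was higher outside the qNSC class. It had a read in 12 of 18 aNSC cells (66.7%, 41.0 to 86.7), 8 of 11 IPC cells (72.7%, 39.03 to 94.0) and 26 of 60 qNSC cells (43.3%, 30.6 to 56.8). The intervals overlap. The highest CPM were 872 in aNSC, 687 in IPC and 640 in qNSC cells, so positive cells of the classes covered a similar range. In the cells with 10 or more reads the median was 356 CPM in aNSC, 291 CPM in IPC and 272 CPM in qNSC cells. Mean log2(CPM + 1) differed from qNSC by 2.67 in aNSC and by 2.23 in IPC cells, and the median difference over all measured genes was 0.80 and 0.92.

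Lpar1 was rare in every class. It had a read in 6 of 18 aNSC cells (33.3%, 13.3 to 59.01), 4 of 11 IPC cells (36.4%, 10.9 to 69.2) and 15 of 60 qNSC cells (25%, 14.7 to 37.9). All 3 intervals overlap. Where 10 or more reads were present, CPM ran from 250 to 923 in 3 aNSC cells, from 11.5 to 182 in 2 IPC cells and from 29.04 to 1133 in 9 qNSC cells. The aNSC difference from qNSC cells was 0.38 and did not pass. It was 1.56 and passed against red qNSC cells alone, -1.30 against green ones, and -0.86 as a log2 ratio of summed CPM.

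**Figure D2:**
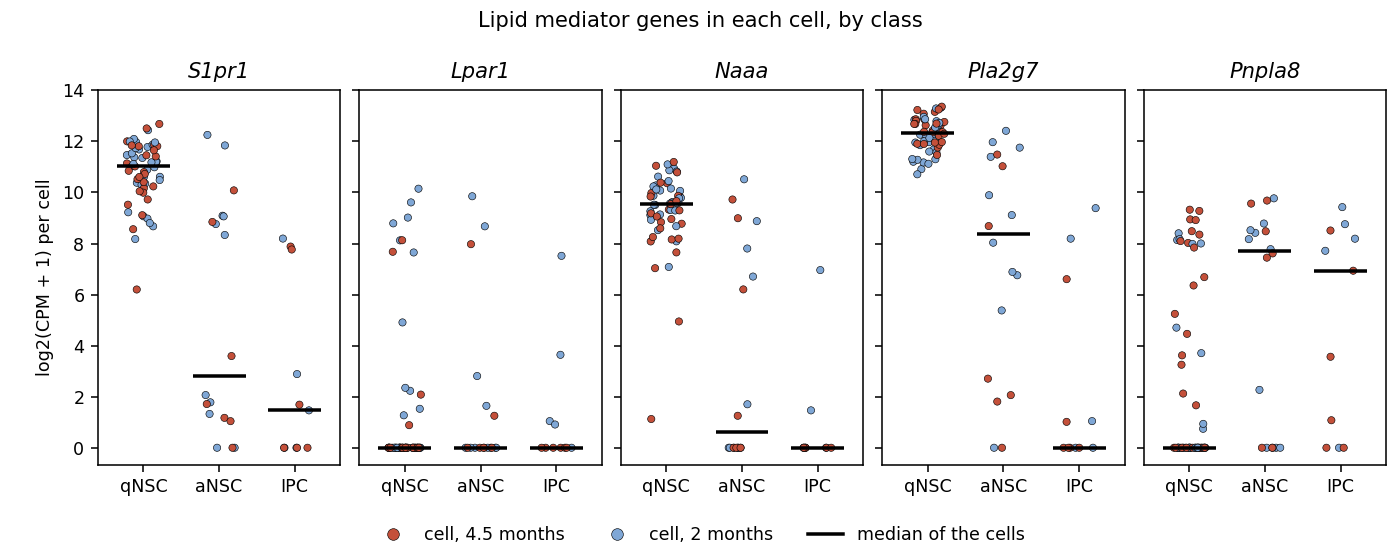
Level of each gene per cell, log2(CPM + 1), in 60 qNSC, 18 aNSC and 11 IPC cells; points are cells coloured by age and bars are medians. S1pr1, Naaa and Pla2g7 step down over the classes, Pnpla8 has more cells above 0 outside qNSC, and Lpar1 is at 0 in most cells of each class.

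A gene was said to pass the limits in a comparison where 20% or more of either group's cells had a read and 3 measures all went the same way: mean log2(CPM + 1) by 1 or more, summed CPM by 2 times or more, and cells with a read by 15 percentage points or more. For aNSC against qNSC cells 2 of the 5 genes passed as lower, S1pr1 and Naaa, and 1 as higher, Pnpla8; of the 8878 genes measured, 3.15% passed as lower and 21.2% as higher. By the size of the difference Naaa, S1pr1 and Pla2g7 held places 3, 4 and 9 from the lowest. Pla2g7 missed the limits because 88.9% of aNSC cells and 100% of qNSC cells had a read, although its difference was -4.97. With 10 reads in place of 1 as detection it passed as lower, since 72.2% of aNSC and 100% of qNSC cells then counted. For IPC against qNSC cells S1pr1, Naaa and Pla2g7 passed as lower and Pnpla8 as higher, where 12.2% and 31.8% of 8502 genes did. For IPC against aNSC cells the same 3 genes passed as lower and none as higher, where 18.3% and 13.5% of 9395 genes did. Their differences there were -2.34 for S1pr1, -2.67 for Naaa and -4.91 for Pla2g7. The S1pr1 difference shrank to -0.78 and no longer passed without cells under 500000 counts, of which there were 13 over all classes. The aNSC cells left out there were all of the high S1pr1 set, with log2(CPM + 1) of 9.09, 9.06, 11.84 and 12.25. Since the members were chosen with these contrasts known, nothing is read from the counts.

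The aNSC values depended on cells with markers of another type. In the 7 aNSC cells with 10 or more Pdgfra reads, S1pr1 had 0 to 8 reads and Naaa 0 to 3. In the other 11 aNSC cells, S1pr1 had 10 or more reads in 8 and Naaa in 7. Pla2g7 had a median of 32 reads in the 7 cells and 872 in the 11. Pnpla8 had 10 or more reads in 3 of 7 and 8 of 11 cells, and Lpar1 in 0 of 7 and 3 of 11. Summed CPM of the 10 oligodendrocyte precursor markers ran from 7869 to 17493 in the 7 cells and from 0 to 212 in the 11. Against qNSC, the differences in the 11 cells were -3.23 for S1pr1, -3.93 for Naaa, -3.27 for Pla2g7 and 3.79 for Pnpla8. S1pr1 no longer passed, since all 11 of these cells had a read, and without all cells with markers of other types its difference was -2.59. At 4.5 months alone neither S1pr1 (-6.93) nor Pnpla8 (2.16) passed.

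**Figure D3:**
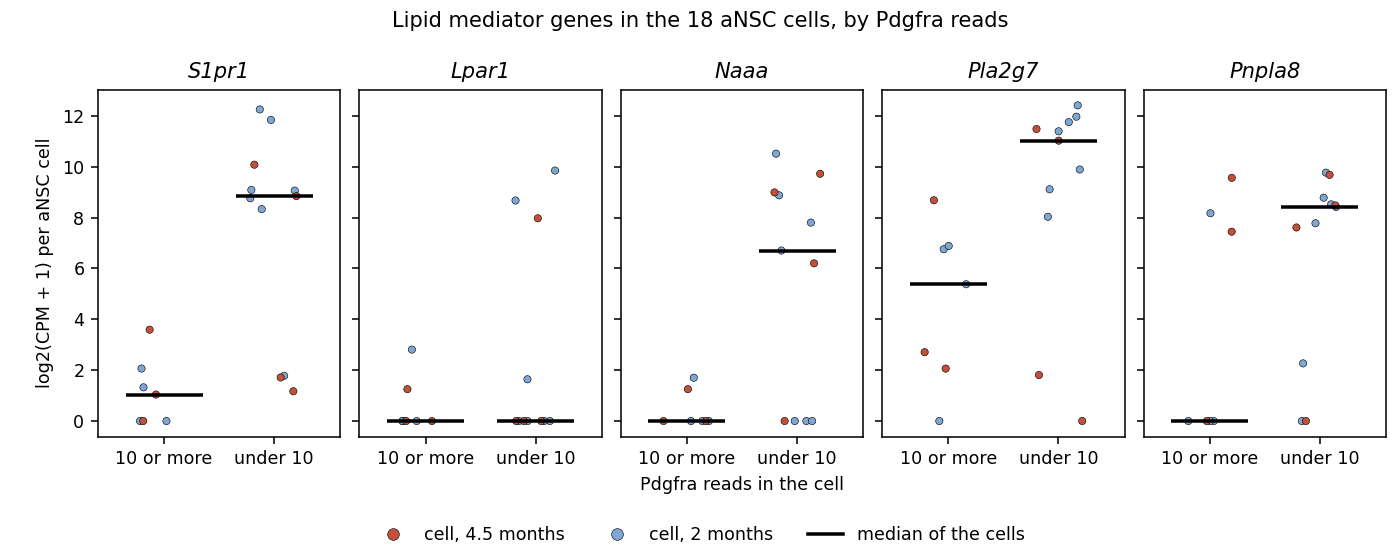
Level of each gene, log2(CPM + 1), in the 7 aNSC cells with 10 or more Pdgfra reads (left) and the 11 with fewer (right); points are cells coloured by age and bars are medians. S1pr1 and Naaa stay at or below 8 and 3 reads in every cell on the left.

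Astrocyte and stem cell markers fell over the classes with S1pr1, Naaa and Pla2g7, but not with Pnpla8, which was higher outside qNSC cells, or Lpar1. Summed CPM of the 10 astrocyte markers, several of which stem cells also use, had medians of 9972 in qNSC (2448 to 23503), 2171 in aNSC (224 to 14489) and 470 in IPC cells (14.1 to 1249). None of the 10 stayed under 10 reads in all qNSC cells, whereas Gjb6, S100b, Aldh1l1 and Slc4a4 did in all IPC cells. The 11 stem cell markers had medians of 59154 (34436 to 86334), 17383 (2405 to 45335) and 2559 CPM (705 to 14286) over qNSC, aNSC and IPC cells. Their part in the class differences of the 5 genes was not tested.

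Among the qNSC colour codes Lpar1 passed the limits. S1pr1 and Pnpla8 differed by 1 or more in mean log2(CPM + 1) between red and green cells without passing. So did Naaa in blue against other cells (-1.34). For S1pr1, Naaa and Pla2g7 passing was not possible, since 100% of the cells of each colour had a read. Lpar1 had a read in 3 of 26 red cells (11.5%, 2.45 to 30.2), 1 of 9 blue cells (11.1%, 0.28 to 48.3) and 11 of 25 green cells (44%, 24.4 to 65.07). All 9 qNSC cells with 10 or more Lpar1 reads were green, at 29.04 to 1133 CPM. No red cell had more than 2 reads and no blue cell more than 2. Summed over cells, Lpar1 had 0.21 CPM (0.07 to 0.49) in red and 200.3 CPM (195 to 206) in green cells. Mean log2(CPM + 1) was 0.23 ± 0.66 in red and 3.09 ± 4.06 in green cells, a difference of -2.86 and place 24 from the lowest of 7613 genes. Of the 5 genes 1 passed as lower in red than green cells, where 7.74% of all measured genes did, and none as higher, where 4.43% did. For blue against all other qNSC cells Lpar1 also passed as lower (difference -1.49), where 15.7% of 7705 genes did and 4.19% passed as higher. That call ended with a pseudocount of 10 (-0.89) and with 10 reads as detection. It also ended without shallow cells (-1.54) and without cells of other types (-1.40), where the difference was about as large as before.

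S1pr1, the other receptor, did not pass between red and green cells. Its CPM had a lowest value of 445, a median of 2766 and a highest value of 6575 in red cells, against 288, 1302 and 4374 in green cells. The ranges overlap widely. Summed CPM was 3037 in red and 1621 in green cells, a ratio of 1.87 that misses the limit of 2. The difference in mean log2(CPM + 1) was 1.03. All red and green cells had a read, so the limit on the share of cells was missed too, and would be at any ratio. Over the 60 qNSC cells S1pr1 and Lpar1 had a Spearman coefficient of -0.38. The 9 cells with 10 or more Lpar1 reads all had 100 or more S1pr1 reads, as did 59 of all 60 qNSC cells.

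Of the enzymes, Naaa and Pla2g7 differed by -0.25 and 0.29 in mean log2(CPM + 1) between red and green cells, with overlapping ranges. Naaa had a median of 750 CPM in red and 728 CPM in green cells, and Pla2g7 5651 and 3970 CPM. Pnpla8 differed by 1.01, with means of 3.15 ± 3.97 in red and 2.15 ± 3.37 in green cells. Its summed CPM was 121 in red and 58.9 in green cells, a ratio of 2.05. It had a read in 12 of 26 red and 9 of 25 green cells, a gap of 10.2 percentage points, and so missed the limits on that measure alone. It passed as higher in red (difference 1.51) only when the 3 red and green cells with markers of other types were left out. Astrocyte markers summed to a median of 13168 CPM in red cells (2526 to 21069) and 5976 CPM in green cells (2448 to 21344). Oligodendrocyte markers summed to medians of 498 CPM in red and 328 CPM in green cells, and the 1 green cell that carried at least 50% of them had 280 Lpar1 reads. Without that cell Lpar1 still had 10 or more reads in 8 of 24 green cells. The part of the astrocyte markers in the colour differences was not tested.

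Between the ages, Pnpla8 and Lpar1 passed the limits in qNSC cells and the other 3 genes did not. Pnpla8 had a read in 17 of 28 qNSC cells of 4.5 months (60.7%, 40.6 to 78.5) and 9 of 32 of 2 months (28.1%, 13.7 to 46.7). With 10 or more reads it was seen in 13 of 28 and 6 of 32 cells. Such cells had a median of 272 CPM at 4.5 months and 268 CPM at 2 months, so the ages differed in how many cells were positive more than in the level of a positive cell. Mean log2(CPM + 1) was 3.95 ± 3.81 at 4.5 months and 1.59 ± 3.05 at 2 months. The difference of 2.36 was the 10th highest of 7247 genes. In cells thinned to 444837 counts the shares were 14 of 25 and 7 of 30.

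The Pnpla8 difference was uneven over the colour codes. It had a read in 9 of 13 red cells of 4.5 months and 3 of 13 of 2 months, a difference in mean log2(CPM + 1) of 3.70. Blue cells gave 4 of 5 and 1 of 4. Green cells gave 4 of 10 and 5 of 15, with a difference of 0.34 that did not pass. Whether the colours differ in this was not tested. Exons of Pnpla8 overlap those of Gm47096, a noncoding RNA gene on the opposite strand, which is a limit on this count without strand.

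Lpar1 was lower in qNSC cells of 4.5 months. It had a read in 4 of 28 qNSC cells of 4.5 months (14.3%, 4.03 to 32.7) and 11 of 32 of 2 months (34.4%, 18.6 to 53.2), a difference of -1.38 in mean log2(CPM + 1). Intervals overlap, and 10 or more reads were found in 2 and 7 cells. Green cells carried it: 3 of 10 cells of 4.5 months and 8 of 15 of 2 months had a read, with a difference of -2.36, whereas in red cells it was -0.14. The call ended in thinned cells (-1.30), with a pseudocount of 10 (-0.80) and with 10 reads as detection. Total counts had a median of 865575 in qNSC cells of 4.5 months and 1051928 in those of 2 months. Over all 60 qNSC cells Lpar1 had a Spearman coefficient of 0.31 with total counts. Beyond the thinned cells the part of depth was not tested. In IPC cells Lpar1 had a read in 0 of 6 at 4.5 months, which allows a share of up to 50%, and in 4 of 5 at 2 months.

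**Figure D4:**
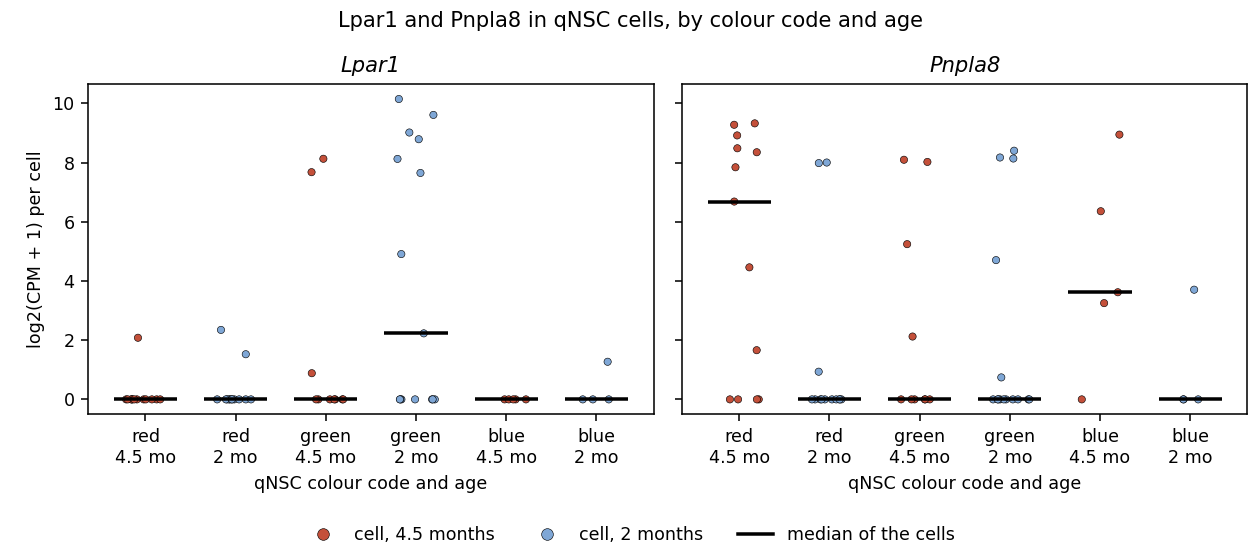
Lpar1 (left) and Pnpla8 (right) per qNSC cell, log2(CPM + 1), by colour code, with 4.5 months left of 2 months in each; points are cells and bars are medians. Lpar1 above 4 is found in green cells alone, and Pnpla8 has a median above 0 in red and blue cells of 4.5 months.

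S1pr1, Naaa and Pla2g7 kept a read in every qNSC cell at both ages. S1pr1 had a median of 1810 CPM at 4.5 months (72.5 to 6575) and 2268 CPM at 2 months (288 to 5553). Naaa had 604 CPM (1.18 to 2341) and 782 CPM (134 to 2193). Pla2g7 had 6088 CPM (2832 to 10517) and 4333 CPM (1676 to 10228). All 3 overlap between the ages, with differences of -0.12, -0.84 and 0.45. Of the 5 genes 1 passed as higher at 4.5 months and 1 as lower, where 2.53% and 5.62% of all measured genes did. Astrocyte markers summed to medians of 10012 CPM at 4.5 months and 8221 CPM at 2 months, and their part in these differences was not tested.

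In aNSC cells no member passed in either direction between 7 cells of 4.5 months and 11 of 2 months, where 11.6% of 9323 genes passed as higher and 15.5% as lower. Pla2g7 had 10 or more reads in 3 of 7 cells of 4.5 months and 10 of 11 of 2 months, and S1pr1 in 2 of 7 and 6 of 11. With 10 reads as detection S1pr1 passed as lower, and in thinned cells Naaa passed as higher (1.72). Of these cells 3 and 4 carried Pdgfra.

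**Figure D5:**
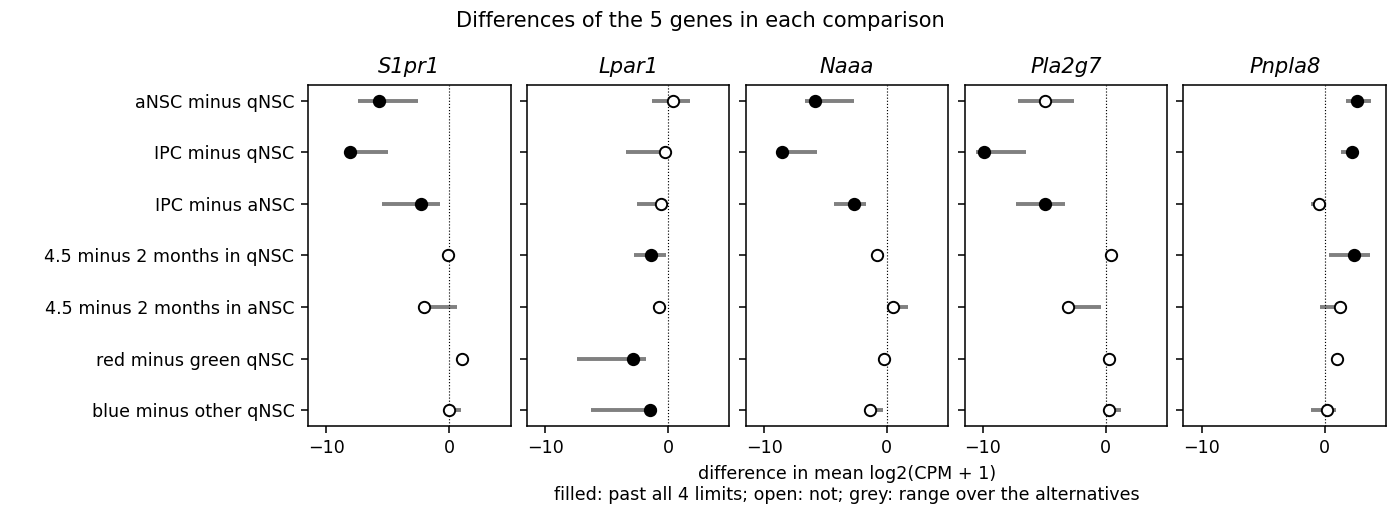
Difference in mean log2(CPM + 1) of each gene in the 7 comparisons, the group named first minus the other; filled points passed all limits, open points did not, and grey bars span the alternatives, TPM-based values and the log2 ratio of summed CPM included. The differences of aNSC and IPC from qNSC cells in S1pr1, Naaa and Pla2g7 lie between -4.97 and -9.88, and the next farthest from 0 is Pla2g7 in IPC against aNSC cells (-4.91).

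The members did not rise and fall as a block within qNSC cells. Of 60 cells, 3 had 10 or more reads of all 5 genes, 22 of 4, 33 of 3 and 2 of 2. All 3 cells with the full set were green, as were all 9 cells with 10 or more Lpar1 reads. Over qNSC cells the Spearman coefficients between S1pr1, Naaa and Pla2g7 were -0.06 (S1pr1 and Naaa), 0.27 (S1pr1 and Pla2g7) and -0.26 (Naaa and Pla2g7). Over all 89 cells they were 0.46, 0.70 and 0.46, a description in which cells share class and depth.

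Genes with the most similar pattern were found by the Spearman coefficient of log2(CPM + 1) among 6904 genes. Over the 89 cells S1pr1 was most like Gja1 (0.87), Htra1 (0.86) and Gjb6 (0.81). Pla2g7 was most like Cldn10 (0.80), Htra1 (0.78) and Clu (0.77), and Naaa like Tspan7 (0.76), Itm2b (0.69) and Gpm6a (0.69). The sparse genes had weaker partners: Lrfn4 (0.47), Galnt11 (0.45) and Hes5 (0.44) for Lpar1, and Prpf6 (0.45), Slc17a5 (0.42) and Slc25a29 (0.42) for Pnpla8. Within the 60 qNSC cells Htra1 (0.71), Gja1 (0.70) and Gpr37l1 (0.66) led for S1pr1, and Slc39a12 (0.64), Arxes2 (0.55) and F3 (0.54) for Pla2g7. There Naaa was nearest to Ppp1ca (0.52), Rtn3 (0.47) and Tspan7 (0.45). Lpar1 was nearest to Lrfn4 (0.57), Frzb (0.54) and Nosip (0.52), and Pnpla8 to Ccnl2 (0.52), Fam120aos (0.49) and Slc25a29 (0.49). Gja1, the nearest to S1pr1, had a mean log2(CPM + 1) of 11.42 in qNSC, 5.79 in aNSC and 3.67 in IPC cells.

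The relatives of the 2 receptors were sparse; they are named here by family, after their values were seen. S1pr2, S1pr3, S1pr4 and S1pr5 had a read in 4, 20, 1 and 1 of 60 qNSC cells, while S1pr1 had one in all 60. Lpar2, Lpar3, Lpar4, Lpar5 and Lpar6 had a read in 2, 1, 13, 0 and 12 qNSC cells. Lpar6 was higher in IPC cells, with a read in 6 of 11. Sphk1, a kinase that makes sphingosine 1-phosphate, had no read in any of the 60 qNSC cells; a share of up to 5% is still allowed, as for Lpar5. Ptafr, the receptor of platelet-activating factor, had a read in 1 of 60 qNSC cells.

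The wider pathways were followed with 123 listed genes in 7 lists, 116 of them in the tables. For aNSC against qNSC cells 13 of 66 measured genes passed as higher and 4 as lower, where 21.2% and 3.15% of all genes did. The largest higher ones were Gnai1 (3.79), a subunit of the G protein the receptors use, Cers5 (2.90) and Gdpd1 (2.85), which make ceramide and N-acylethanolamines, and Enpp2 (2.73), which makes lysophosphatidic acid. Gnao1 (-2.61), Lpcat3 (-2.23), Ephx2 (-1.49) and Pnpla2 (-1.47) were lower. The list's median was 0.40, against 0.80 for all genes. Pathway genes were not recomputed without the 7 aNSC cells that carried Pdgfra, in any comparison. In IPC against qNSC cells 10 of 62 were higher and 24 lower, where 31.8% and 12.2% of all genes were, and the median was -0.71 against 0.92 for all genes. Ppap2b (-5.29), which degrades extracellular lysophospholipids, Asah1 (-5.09) and Degs1 (-5.05) of ceramide metabolism and Gnao1 (-5.01) led the lower genes, and Gdpd1 (5.71), Pafah1b3 (5.49), Lta4h (3.73) and Pafah1b2 (3.43) the higher ones. For IPC against aNSC cells 7 of 66 were higher, led by Pafah1b3 (4.46), and 27 lower, led by Abhd4 (-4.95) and Enpp2 (-4.91), where 13.5% and 18.3% of all genes were. The list's median was -1.08, against -0.04 for all genes.

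With age in qNSC cells 3 of 57 measured pathway genes passed, where 2.53% of all genes were higher and 5.62% lower. Pafah1b2 (1.90), a subunit of an intracellular hydrolase of platelet-activating factor, and Acer3 (1.28), a ceramidase, were higher at 4.5 months and the cannabinoid receptor Cnr1 (-1.61) was lower. In aNSC cells 10 of 66 were higher and 8 lower at 4.5 months, where 11.6% and 15.5% of all genes were, so neither share is read as a result. Between red and green qNSC cells 7 of 59 were higher, led by Pnpla2 (2.98), a lipase of the Pnpla8 family, and Gnai3 (2.81), and 4 lower, namely Pla2g16 (-2.57), Enpp2 (-1.54), Lpcat2 (-1.42) and Pnpla6 (-1.16), where 4.43% and 7.74% of all genes were. Enpp2, which makes lysophosphatidic acid, was thus lower in red than green cells, as was Lpar1. Of 8 measured genes in the lysophosphatidic acid list, Enpp2 was the only 1 that passed. The median of that list was 0.10, against -0.09 for all genes. Enpp2 was not recomputed without the green cell that carried oligodendrocyte markers, and a link between Enpp2 and Lpar1 was not tested. For blue against other qNSC cells 1 of 59 was higher, Ephx1, and 10 were lower, where 4.19% and 15.7% of all genes were.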

How the data were processed

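Single cells of mouse dentate gyrus were measured by SMART-Seq v4. The authors' deposited tables hold estimated counts per gene, and, in the same deposited set, TPM; STAR and RSEM with mm10 are listed per the submitters' processing notes, with versions not given in the sources used here. Of the values above 0, 4.44% were not whole (tolerance 1e-06), and counts were rounded for reads, shares and sums. Groups were read from the ages in the labels and the classes and colours of the deposited groups table. CPM was computed from a cell's summed counts, and log2(CPM + 1) used a pseudocount of 1; levels between genes used TPM.

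Since each group is 1 sample, groups were compared by size only: means with SD over cells, shares with exact Clopper-Pearson 95% intervals and summed CPM with exact Poisson 95% intervals. A share of 0 was bounded by 3 cells of the total. The 5 members, gene lists and markers were chosen with earlier results of these data known, and the division of aNSC cells by Pdgfra in the per-cell values and the CpG count were chosen after the tables were seen; an earlier search of the promoters for 3 transcription factor motifs was dropped and is not reported. The text names all members, the 3 genes most like each in all cells and in qNSC cells (read in at least 20% of the 89 cells), and at most 4 pathway genes per direction and comparison with the largest difference. The receptor families, Sphk1, Sphk2 and Ptafr were added later. The comparison procedure was tested on simulated data. Promoters are from RefSeq tables, found for 4 of 5 members. Python 3.11.15, numpy 2.4.6, pandas 2.3.3, scipy 1.17.1 and matplotlib 3.10.9 were used. A cell's total of 234607 to 1896074 counts sets what 1 read is worth. The spread without a gene's lowest cell was added after the data were seen. Alternatives were TPM, size factors, a pseudocount of 10, thinning, other filters, 10 reads as detection, and leaving out shallow cells, cells with markers of other types or other ages and colours.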

Additional observations from a re-analysis of the deposited data

How the results depend on the processing

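Of the 14 member differences that passed the limits, 8 passed in every alternative that has a call of its own, and over the 117 such alternatives 102 kept the call. None turned its direction, the ratio of summed CPM included. Calls ended for S1pr1 in aNSC against qNSC (-2.59 without cells of other types, -6.93 at 4.5 months alone, -3.23 with low Pdgfra), Pnpla8 there (2.16 at 4.5 months alone) and S1pr1 in IPC against aNSC (-1.07 thinned, -0.78 without shallow cells). They ended for Lpar1 with age in qNSC (-0.80 with a pseudocount of 10, -1.30 thinned, -0.14 in red cells, and with 10 reads as detection), Pnpla8 with age (0.34 in green cells) and Lpar1 in blue cells (-0.89 with a pseudocount of 10, -1.54 without shallow cells, -1.40 without other types, and with 10 reads). Several of these differences stayed as large as before, so a call that ended need not be a smaller difference. The 5 calls gained were Lpar1 in aNSC against red qNSC (1.56), Pla2g7 in aNSC against qNSC and S1pr1 with age in aNSC (-27.8 and -26.0 percentage points with 10 reads as detection), Naaa with age in thinned aNSC cells (1.72) and Pnpla8 in red against green without other types (1.51). As a log2 ratio of summed CPM, Lpar1 was -3.43 for IPC against qNSC, -7.38 for red against green and -6.30 for blue against other qNSC cells, and Naaa was -5.92 for IPC against qNSC. With a pseudocount of 10 that Naaa difference was -5.67. With size factors Pla2g7 was 1.28 higher in blue than other qNSC cells, where this scaling moved the median of all genes by 0.34; for age in qNSC it moved it by 0.12, and TPM and size factors moved it by -0.12 and -0.11 for IPC against qNSC. Relative to the median of all genes, Lpar1 was -0.42 in aNSC against qNSC.

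Counts of all genes passing fell when a read in at least 50% of cells was asked for and with a pseudocount of 10. In that order they were 1027 and 1132, against 2166, for aNSC against qNSC. For IPC against aNSC they were 1535 and 1806, against 2991. For age in qNSC they were 224 and 154, against 590, and for age in aNSC 1088 and 1395, against 2526. For red against green they were 347 and 345, against 926, and for blue against other qNSC 530 and 708, against 1534. For IPC against qNSC they were 2237 and 2734, against 3740. Age gave 1673 genes within red cells and 1792 within green cells, and 4349 in aNSC cells without other types, where 3 and 6 cells remain. The cause of these moves was not tested. No paired analysis was possible because replicate numbers only name cells and no test was run.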
